A study of Mus musculus with 6 samples.

Results

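The BCL2 family sets whether a cell lives or dies at its mitochondria, and its genes were examined here for binding of the T-box factor Eomes in mouse NK cells. The 10 genes were taken by name, as every peak row whose assigned gene symbol was one of them, out of 21900 protein-coding genes. They were 3 pro-survival genes (Bcl2, Bcl2l1 and Mcl1) and 7 pro-death genes (Bax, Bak1, Bcl2l11, Bid, Bmf, Bbc3 and Pmaip1). Eomes was immunoprecipitated in 3 separate experiments from splenic NK cells. The mice were C57BL/6, wild type and 8 to 12 weeks old. Spleens were pooled, and the purified cells were kept for 4 days in 100 ng/mL IL-15. Each experiment paired an immunoprecipitated (IP) library with an input library of the same chromatin, and all carried the same genotype and treatment. Only this cultured state was profiled, with no cells lacking Eomes and no RNA measurement. The purity of the cells and the level of these genes are therefore not known from these data. Whether each peak depends on Eomes was not tested. Each library pools many cells, so stronger binding per cell and binding in more cells cannot be told apart.

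Pro-survival proteins such as BCL-2, BCL-XL (Bcl2l1) and MCL-1 hold the effectors BAX and BAK in check on the outer mitochondrial membrane. BH3-only proteins such as BIM (Bcl2l11), BID, BMF, PUMA (Bbc3) and NOXA (Pmaip1) carry death signals by blocking the pro-survival proteins or by activating BAX and BAK, which then open the membrane and release cytochrome c. In NK cells, IL-15 signalling is known to sustain MCL-1 and BCL-2 and to restrain BIM.

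Each experiment gave 1 peak list, of 37456, 33841 and 46329 intervals in experiments 1, 2 and 3. The pileup is read as the number of IP fragments at a peak's summit, and the fold is the authors' ratio of IP to local background. Both are the authors' values for each peak. Lists had median pileups of 12, 11 and 14 fragments and smallest pileups of 8, 7 and 9, so weaker binding was not detectable. Sequencing depth is not known, and pileups are compared within a list or as ranks. A site is a set of overlapping peaks of 1 gene, and a site found in at least 2 of the 3 experiments is called a reproducible region. Means ± SD over experiments describe a region.

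Eomes regions lay at or near the starts of 9 of the 10 genes. At least 1 peak was assigned to 9, 10 and 10 of the genes in experiments 1, 2 and 3, against 54.1%, 53.9% and 60.0% of all protein-coding genes. All 3 pro-survival genes and 6 of the 7 pro-death genes had a reproducible region, and Pmaip1 did not. Among all protein-coding genes, 43.6% had one. Regions found in all 3 experiments were present at 3 of 3 pro-survival and 4 of 7 pro-death genes, against 28.0% of all genes. The same 9 genes had a reproducible region of the promoter class, which reaches 3 kb from a transcription start site (TSS), against 37.1% of all genes, and 7 of them had one in all 3 experiments, against 23.4%. Outside promoters, 0 of the 3 pro-survival genes and 4 of the 7 pro-death genes had an assigned reproducible region, against 15.0% of all genes. The count of 0 for pro-survival genes depends on how peaks were given to genes, as set out for Bcl2l1.

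Start windows are shown for 4 of the genes. RefSeq gives 16 start windows, from 250 bp before to 50 bp after a start, for 9 of the genes on GRCm38.p6. Of these, 12 windows, at 9 genes, shared bases with a region of at least 2 experiments, against 24.2% of 32851 windows of all genes. Mcl1 and Bcl2l11 had windows with a summit in each of the 3 experiments, and capitals mark the stretch from the first to the last of these summits. Mcl1 (chr3:95658471-95658770, plus strand) and Bcl2l11 (chr2:128125788-128126087, plus strand) read as follows.
Mcl1: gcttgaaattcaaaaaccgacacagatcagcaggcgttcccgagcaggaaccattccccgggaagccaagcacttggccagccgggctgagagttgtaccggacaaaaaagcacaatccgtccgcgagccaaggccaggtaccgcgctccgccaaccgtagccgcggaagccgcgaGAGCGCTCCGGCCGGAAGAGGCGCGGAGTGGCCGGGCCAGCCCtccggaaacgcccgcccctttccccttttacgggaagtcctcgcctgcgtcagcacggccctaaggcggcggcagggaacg
Bcl2l11: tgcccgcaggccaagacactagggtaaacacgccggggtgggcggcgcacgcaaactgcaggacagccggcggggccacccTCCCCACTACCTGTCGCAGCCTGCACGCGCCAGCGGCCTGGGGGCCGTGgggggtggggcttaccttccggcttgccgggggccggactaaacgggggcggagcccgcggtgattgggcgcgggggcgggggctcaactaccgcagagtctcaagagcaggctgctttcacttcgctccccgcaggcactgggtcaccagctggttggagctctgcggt
The Mcl1 stretch spans 43 bases, with summits at -50, -74 and -32 bp from the start in experiments 1, 2 and 3. The Bcl2l11 stretch spans 49 bases, with summits at -121, -141 and -169 bp. In experiments 1 and 2 these are secondary summits of the peak, whose main summit lay upstream of the window.

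The window of Bcl2l1 (chr2:152831679-152831978, minus strand) and that of Bak1 (chr17:27028578-27028877, minus strand) are shown because each held a searched motif, marked in capitals. The Bcl2l1 window overlaps its region in every experiment, but all 3 summits lie outside it, further into the gene.
Bcl2l1: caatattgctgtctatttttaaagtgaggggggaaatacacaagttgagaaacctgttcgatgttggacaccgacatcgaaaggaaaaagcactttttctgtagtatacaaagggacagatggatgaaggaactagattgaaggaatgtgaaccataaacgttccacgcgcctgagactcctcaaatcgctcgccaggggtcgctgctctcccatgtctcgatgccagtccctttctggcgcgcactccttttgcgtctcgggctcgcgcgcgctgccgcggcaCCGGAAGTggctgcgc
Bak1: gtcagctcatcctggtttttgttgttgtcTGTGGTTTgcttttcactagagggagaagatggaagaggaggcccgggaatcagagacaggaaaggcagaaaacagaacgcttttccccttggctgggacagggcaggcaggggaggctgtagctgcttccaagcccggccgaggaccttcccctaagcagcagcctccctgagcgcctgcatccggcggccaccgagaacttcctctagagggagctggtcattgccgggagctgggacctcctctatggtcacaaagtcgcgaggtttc
The Bcl2l1 match is the ETS motif CCGGAAGT, whose first base lies 34 bp downstream of the start. It occurred in 3.89% of all windows and in 11.0% of the 7941 windows under a reproducible region. The Bak1 match is the RUNX motif TGTGGTTT, at -221 bp, found in 1.78% of all windows and 1.02% of windows under a region. It lay under the Bak1 peak of experiment 1 only, and the start peaks of experiments 2 and 3 ended short of it. The T-box motif AGGTGTGA was found on neither strand of the 16 windows, in 1.28% of all windows and in 0.869% of windows under a region. Its core GTGTGA was found in 1 of the 16, an internal start of Bcl2l1 under no peak, against 14.5% of all windows and 10.8% of windows under a region. The core lies inside the longer T-box motif, so the searches overlap. Only start windows were searched. Regions outside them, among them the leading regions of Bcl2l11, Bbc3 and Bid described below, were not examined for motifs. GC content had a median of 61% in the 16 windows, 63.3% in all windows under a region and 52.7% in all windows.

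**Figure D1:**
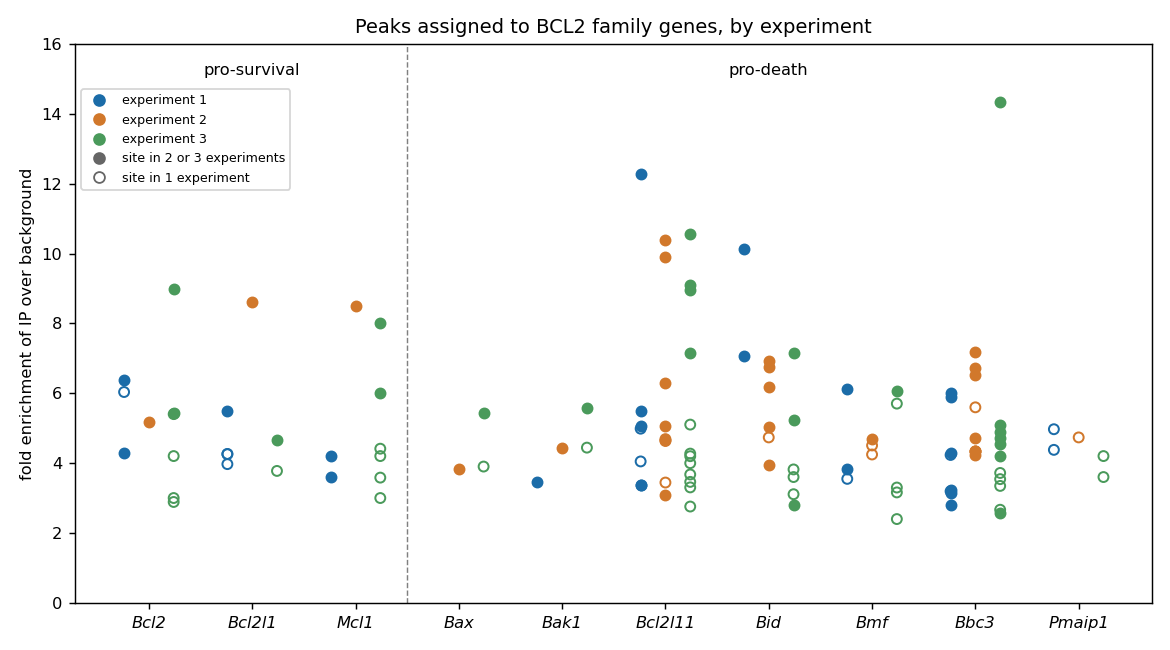
Fold enrichment (linear axis) of every peak assigned to the 10 genes, with 1 point per peak, colours for experiments, filled points for sites in 2 or 3 experiments and open points for sites in 1. Bcl2l11 and Bbc3 carried 28 peaks each, whereas the 5 peaks of Pmaip1 are all open.

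The 10 genes held 119 peaks, with 32, 33 and 54 in experiments 1, 2 and 3. These formed 73 sites, of which 14 had a peak in every experiment, 8 in 2 experiments and 51 in a single one. Reproducible regions made up 30.1% of the sites, close to the 26.3% over all protein-coding genes. Of the 51 single sites, 32 came from experiment 3, which had the longest list. Single sites lay near the middle of their list by score (median percentile 49.1), and reproducible ones higher (78.4). Of the 22 reproducible regions, 16 (72.7%) were led by a promoter peak, against 65.6% over all protein-coding genes.

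Among the pro-survival genes, Bcl2, the founding member of the family, was bound at its start in every experiment. The region at chr1:106713932-106714424 had pileups of 17, 11 and 22 fragments in experiments 1, 2 and 3, and a fold of 5.66 ± 0.64 (SD, n = 3). The value was lowest in experiment 2, whose list also had the lowest median pileup. A second promoter region, chr1:106712286-106712691, had 14 fragments in experiment 1 and 33 in experiment 3 and no peak in experiment 2. Its fold was 4.30 in experiment 1 and 8.98 in experiment 3. Bcl2 is the longest of the 10 genes at 176 kb. Its 4 intronic peaks were all found in experiment 3 alone, the strongest with a fold of 5.40.

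Mcl1, a short-lived pro-survival protein on which NK cells depend, had its leading region over the start shown above. The region at chr3:95658498-95658968 had pileups of 15, 21 and 35 fragments and folds of 3.60, 8.50 and 8.00 in experiments 1, 2 and 3. The fold was thus low in experiment 1, at percentile 44.7 of its list, and high in the other two, at 93.6 and 94.0. A neighbouring region inside the gene (chr3:95659307-95659791) had 13 and 19 fragments in experiments 1 and 3. Another 4 sites of Mcl1, 3 upstream and 1 downstream of the gene, were found in experiment 3 only.

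Bcl2l1, which encodes BCL-XL, had by assignment 1 reproducible region, at its start (chr2:152831143-152831788). Pileups there were 16, 19 and 23 fragments, and folds were 5.49, 8.61 and 4.65. The strongest binding over the gene was assigned elsewhere. Of 18 peaks over the gene and 5 kb upstream, the authors' annotation gave 10 to Gm23802, a gene model with a nearer start, and 1 to Cox4i2. A region annotated as 3' UTR (chr2:152781105-152782361), 50.2 kb downstream of the Bcl2l1 start, had pileups of 37, 36 and 47 fragments. Its folds were 11.1, 14.9 and 12.7, at percentiles 98.3, 98.9 and 98.0 of their lists. The region merged 5 peaks, and its leading summits spread over 789 bp. The experiment 3 summit lay apart from those of experiments 1 and 2, inside second peaks with 31 and 20 fragments there. A region in an intron of Bcl2l1 (chr2:152789603-152789971) had 33, 22 and 46 fragments and a fold of 7.87 ± 2.72 (SD, n = 3). Its summits lay within 9 bp of each other. A weaker intronic region beside it was found in experiments 1 and 3. Counted over the gene and 5 kb upstream, Bcl2l1 held 4 reproducible regions in place of 1, 3 of them outside the promoter. Of the other 9 genes, only Bcl2 and Bak1 had a peak in this window given to another gene, with 1 peak each in experiment 1.

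**Figure D2:**
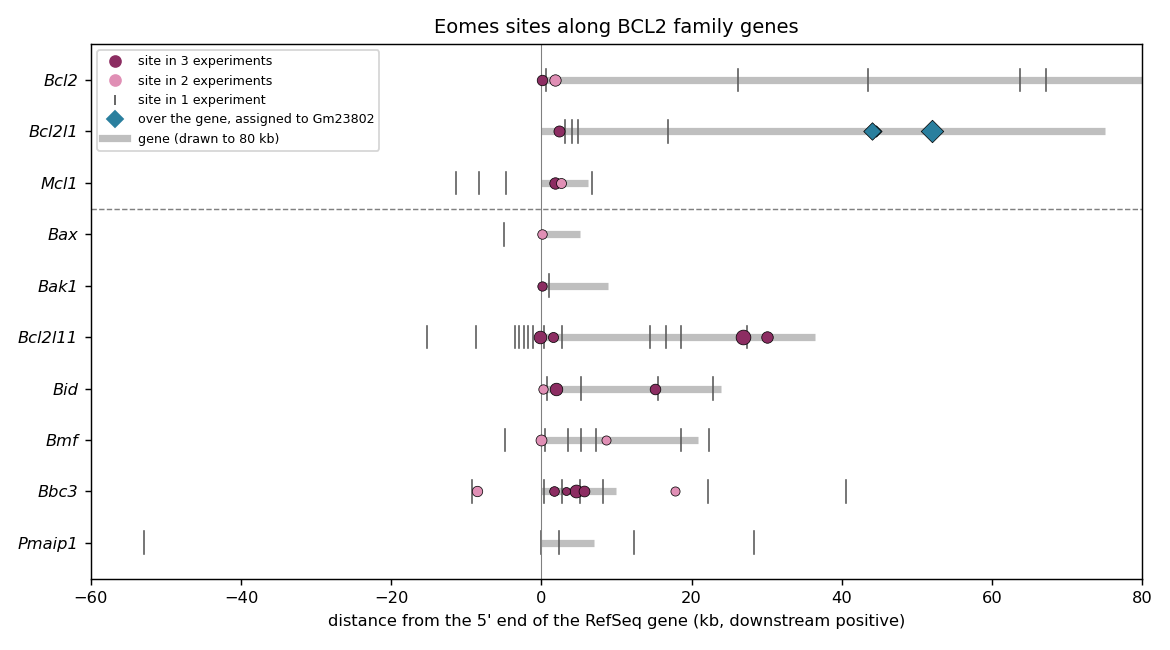
Positions of sites along the 10 genes, as distance from the 5' end of the RefSeq gene in kb, with the gene as a grey bar and circle area in proportion to the mean fold. The 3 diamonds over Bcl2l1 (2 of them nearly superimposed) are regions assigned to Gm23802, and the largest circle of Bcl2l11 is its intronic region with a fold of 11.1.

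Of the pro-death effectors, Bax and Bak1 had the lowest leading folds. BAX and BAK form the pores in the mitochondrial membrane. Bax had no peak in experiment 1, and its start region (chr7:45466513-45466998) had 15 fragments in experiment 2 and 22 in experiment 3, with folds of 3.83 and 5.43. Bak1 had a start region in every experiment (chr17:27028303-27028857), with 11, 10 and 20 fragments and a fold of 4.49 ± 1.05 (SD, n = 3). Its peak stood at percentile 23.3 and 42.8 in experiments 1 and 2, and at 80.5 in experiment 3.

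Bcl2l11, whose product BIM is the main trigger of death on cytokine loss in many lymphocytes, had the highest leading fold of the 10 genes by assignment. An intronic region at chr2:128152669-128153122 had pileups of 38, 30 and 47 fragments and folds of 12.3, 10.4 and 10.6 in experiments 1, 2 and 3. It stood at percentiles 98.6, 97.2 and 97.5, and its 3 summits lay within 10 bp of each other. The authors' distances from its peaks to the nearest annotated start were 24596, 24653 and 24538 bp. The start region (chr2:128125449-128126274) had 22, 26 and 40 fragments and folds of 5.50, 9.91 and 9.11. The intronic fold was higher than the start fold in 3 of 3 experiments, by 2.90 ± 3.40 (SD, n = 3), a pair chosen after the values were seen and not tested. A second intronic region (chr2:128155585-128156683) had 24, 14 and 30 fragments, and a second promoter region (chr2:128126898-128128228) had 11, 11 and 26. Their leading summits spread over 327 and 438 bp. All 4 regions were found in all 3 experiments, and 3.45% of protein-coding genes had at least 4 reproducible regions. Of its 13 single sites, 8 were found in experiment 3, and single sites upstream of the gene included 3 in an intron of the neighbouring gene Acoxl.

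Bbc3, which encodes PUMA, a BH3-only protein induced by p53, had the most assigned reproducible regions, 6. The gene is 9.94 kb long, and 4 reproducible regions lay over it or 5 kb upstream. Bcl2l11 and Bcl2l1 also had 4 each by that count. At least 6 were assigned to 1.12% of protein-coding genes. The leading region, chr7:16312526-16313374, is of the promoter class because it lies just upstream of an internal start, at authors' distances of -162, -194 and -143 bp. Its pileups were 16, 19 and 51 fragments and its folds 4.30, 6.73 and 14.3. Experiment 3 stood apart there, with the highest fold of any peak assigned to the 10 genes. A wide region over 3 of the RefSeq starts (chr7:16309236-16311022) merged 7 peaks and had a fold of 4.80 ± 1.69. Its leading summits spread over 755 bp, so this fold does not describe 1 position. A region at chr7:16313824-16314458 varied least of the 4 found in all 3 lists when set against its mean, with 18, 16 and 21 fragments. The fourth, chr7:16311554-16311906, had folds of 2.81, 4.35 and 2.56. In experiment 3 its recovered local background was 8.75 fragments, against a lowest background of 2.33 in that list. The part of this background in the call was not tested. Regions upstream (chr7:16299671-16300066) and downstream (chr7:16326060-16326449) of the gene were each found in 2 experiments, and 2 single sites lay in an exon or intron of Sae1.

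Bid, which is cut by caspase 8 and links death receptors to mitochondria, had 3 reproducible regions. The leading one (chr6:120914709-120915546) lay 1252 to 1286 bp downstream of a start and had 34, 17 and 50 fragments, with folds of 10.1, 6.92 and 7.16. Its summits lay within 43 bp. A region outside the promoter class (chr6:120901700-120902279) had 20, 14 and 18 fragments, with summits within 22 bp and a fold of 5.78 ± 1.13 (SD, n = 3). Its leading peak was annotated as intron in experiments 1 and 2 and as 5' UTR in experiment 3. The start itself (chr6:120916608-120916992) had a peak in experiments 2 and 3 only. In experiment 3 the background at both promoter regions was 6.12 fragments, and its part in these values was not tested.

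Bmf, a BH3-only protein that can respond to loss of adhesion, had no region in all 3 lists. Its start region (chr2:118549424-118549967) had 18 fragments in experiment 1 and 21 in experiment 3, with folds of 6.12 and 6.07. Experiment 2 had a separate promoter peak, which did not overlap. An intronic region (chr2:118540958-118541223) had 16 fragments in experiment 1 and 10 in experiment 2, with summits 4 bp apart. Pmaip1, which encodes NOXA, the BH3-only protein that targets MCL-1, had 2, 1 and 2 peaks in experiments 1, 2 and 3. None of the 5 overlapped another. Experiment 3 alone had a peak at the Pmaip1 start, with 13 fragments and a fold of 4.20.

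Ordered by the mean fold of the leading assigned region, the genes ran Bcl2l11 (11.1 ± 1.05), Bbc3 (8.46 ± 5.24), Bid (8.07 ± 1.78), Mcl1 (6.70 ± 2.69), Bcl2l1 (6.25 ± 2.09), Bmf (6.09 ± 0.03, n = 2), Bcl2 (5.66 ± 0.64), Bax (4.63 ± 1.13, n = 2) and Bak1 (4.49 ± 1.05; SD, n = 3 unless given). Each gene overlapped its neighbour in this order in the range of its folds over experiments, so no neighbours were separated beyond their spread. The order was not tested, since folds of different lists differ in depth. A list without a peak was left out of the mean, which affects the places of Bmf and Bax. In experiments 2 and 3, Bak1 had folds of 4.44 and 5.57, above the 3.83 and 5.43 of Bax. The Bak1 mean also counts 3.47 in experiment 1, where Bax had no peak. In experiments 1 and 3, Bmf had 6.12 and 6.07, above the 5.49 and 4.65 of Bcl2l1. Regions assigned to other genes were left out. The region over Bcl2l1 annotated as 3' UTR had a mean fold of 12.9 ± 1.90 (SD, n = 3), higher than any in this order. The place of Bcl2l1 thus depends on the assignment.

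Pro-survival genes carried fewer assigned peaks per gene than pro-death genes in 3 of 3 experiments, but the direction depended on the threshold, on Bbc3 and Bcl2l11, and on the assignment. At a −log10 q of at least 2 or at least 3, and among promoter peaks alone, pro-survival genes were lower in 2 of 3 experiments and higher in experiment 1. Pro-survival genes had 3.00 peaks per gene and pro-death genes 3.29 in experiment 1. The values were 1.00 for pro-survival and 4.29 for pro-death genes in experiment 2, and 4.67 for pro-survival and 5.71 for pro-death genes in experiment 3. The difference, pro-survival minus pro-death, was -1.54 ± 1.56 peaks per gene (SD, n = 3, two-sided exact permutation p = 0.25, the smallest that 3 pairs allow, and 0.5 after Benjamini-Hochberg adjustment over 2 comparisons). Over all protein-coding genes the mean was 1.28, 1.20 and 1.62 peaks per gene. Without Bbc3 and Bcl2l11 the difference turned to 0.42. With peaks counted over each gene and 5 kb upstream, pro-survival genes had 4.67, 2 and 5 and pro-death genes 2.57, 3.86 and 5.14 peaks per gene in experiments 1, 2 and 3, and the difference was 0.032. This count took the total to 35 peaks for pro-survival genes, from 26 assigned, and to 81 for pro-death genes, from 93 assigned. Bcl2 and Bcl2l1 are longer than any of the 7 pro-death genes, whereas Mcl1 spans 6.24 kb.

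**Figure D3:**
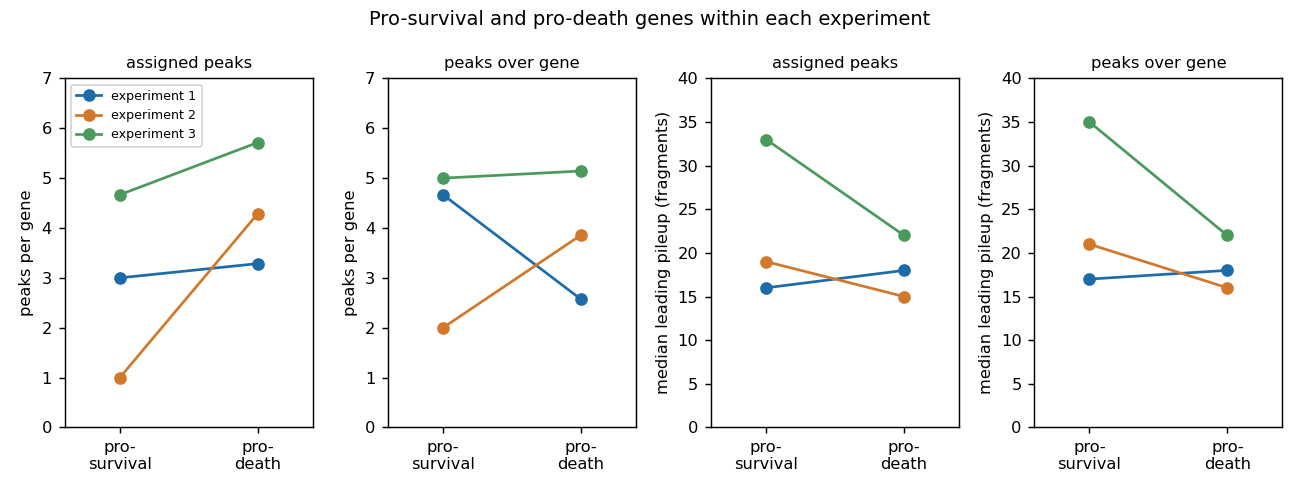
Pro-survival genes (left in each panel) and pro-death genes within each experiment, as mean peaks per gene (left pair of panels) and as the median pileup of each gene's leading peak (right pair), for assigned peaks and for peaks over the gene or 5 kb upstream. Lines join values of 1 experiment, and they run in both directions in all panels but the first.

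The strength of the leading peak did not separate the groups beyond the spread over experiments. The median leading pileup was 16 fragments for pro-survival and 18 for pro-death genes in experiment 1, where 6 of the 7 pro-death genes had a peak. It was 19 for pro-survival and 15 for pro-death genes in experiment 2, and 33 for pro-survival and 22 for pro-death genes in experiment 3. The difference was 4.33 ± 6.51 fragments (SD, n = 3, two-sided exact permutation p = 0.5, and 0.5 adjusted over 2 comparisons). It was positive in 2 of 3 experiments. With 3 pairs, this design could not reach a p under 0.25.

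Other genes of the death pathway were covered unevenly. The 3 lists of these genes were chosen with earlier results of the series known. Of 13 other BCL2 family genes, 3 had a reproducible region (23.1%), below the 43.6% of all protein-coding genes. They were Bcl2l13, a mitochondrial member and the neighbour of Bid, with 4 regions and a leading fold of 4.77 ± 1.84, Bcl2l12 (4.57 ± 1.05, SD, n = 3 each) and Bad, a BH3-only gene (3.34 ± 0.47, n = 2). No reproducible region was assigned to Bcl2a1a, Bcl2a1b, Bcl2a1d, Bcl2l2, Bcl2l10, Bok, Bik, Hrk, Bcl2l14 and Bcl2l15. The Bcl2a1 genes are near-identical copies, and whether reads could be placed uniquely there was not examined.

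Of 13 genes of the mitochondrial pathway downstream of BAX and BAK, 6 had a reproducible region (46.2%), near the share of all genes. Birc3, which encodes the inhibitor cIAP2, led with 13.4 ± 4.10 at its start. Casp9, the initiator caspase, had 6.36 ± 0.35 and Birc5, which encodes survivin, 4.88 ± 1.80 (SD, n = 3 each). Genes without one included Diablo, Htra2, Xiap, Birc2, Endog and Aifm1.

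Of 11 genes of the death receptor route and upstream regulators, 9 had a reproducible region (81.8%), against 43.6% of all protein-coding genes. Foxo3, a factor that can induce Bcl2l11 and Bbc3, had an intronic region with a fold of 22.6 ± 6.37 (SD, n = 3), at percentile 99.8 or above in each list, and 5 regions in all. Ripk1 had 7.07 ± 1.02 and Trp53, which encodes p53, 5.83 ± 1.45 (SD, n = 3 each). Bnip3 had 4.82 ± 0.87 (SD, n = 2). Fas and Casp8 had none.

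**Figure D4:**
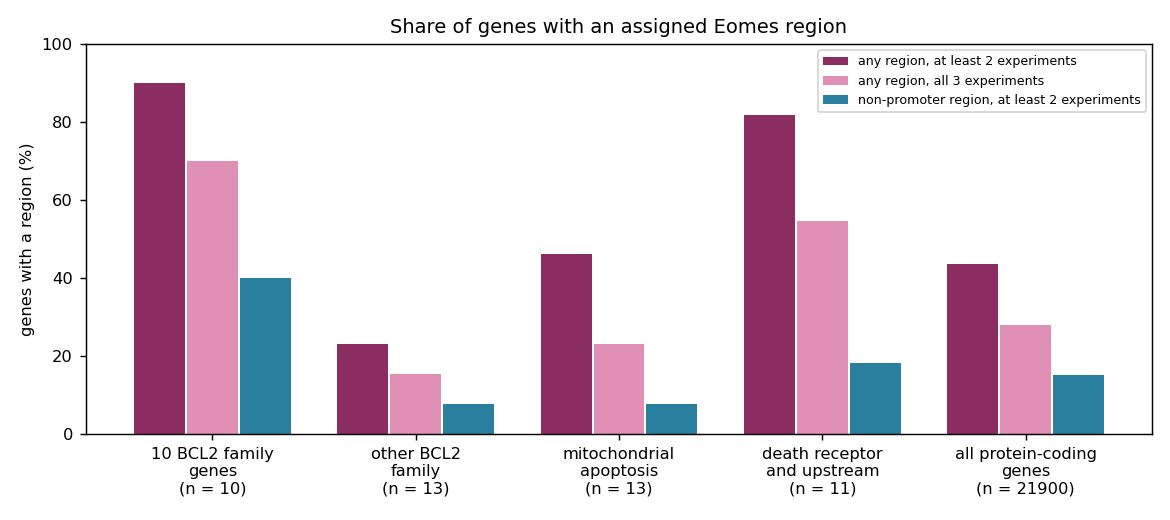
Percent of genes with an assigned region for the 10 BCL2 family genes, the 3 lists of related genes and all 21900 protein-coding genes, with bars from 0 for any region in at least 2 experiments, any region in all 3, and non-promoter regions in at least 2. The 10 genes stand at 90%, other BCL2 family genes at 23.1% and all genes at 43.6% for the first bar.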

How the data were processed

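Eomes ChIP and input libraries of 3 experiments (6 libraries) entered as 3 deposited peak lists, each setting an IP against its own input, so peaks were called per experiment. The submitters' processing notes name the build mm10, Novoalign (alignment) and ChIPseeker (annotation), while no source used here gives the peak caller or any setting. Per the labels' protocols, fragments of 200 to 600 bp were amplified for 15 cycles. The deposited pileup is a signal at the peak summit, the deposited fold is a ratio of IP to background, and the deposited −log10 p-values and −log10 q-values are the authors' scores. Background was recovered as (pileup + 1) / fold − 1, and its lowest value per list was 1.82, 1.32 and 2.33 fragments. Depth per library is unknown.

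Where an interval was listed more than once, its row of highest −log10 q-value was kept. Between 20 and 25 peak numbers per list are absent from the rows used. Widths in the lists fall 1 bp short of the length column, so starts may be shifted by 1 bp. Symbols matched a protein-coding gene in RefSeq (GRCm38.p6, which mm10 represents) for 74.7%, 77.4% and 76.7% of intervals, and all 10 genes matched. Peaks of 1 gene sharing at least 1 bp formed a site. The merging was tested on simulated intervals and against bedtools 2.31.1 (84399 regions, 20126 of them reproducible, by both). The sites of protein-coding genes, on which the shares rest, are a different set of 62565, of which 16456 were reproducible. Leading regions were ranked by the number of experiments, then by percentile of −log10 q. Pro-survival and pro-death genes were compared within experiments by an exact permutation test of signs. All 10 genes are named, with up to 4 leading genes and those without a region from each related list, except that some genes of the mitochondrial list are counted but not reported here by name. The genes and lists were chosen with earlier results of these data known. Analyses used Python 3.11.15 and pandas 2.3.3.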

Additional observations from a re-analysis of the deposited data

How the results depend on the processing

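The count of 9 genes with a reproducible region was 8 without any 1 experiment and 9 under the other alternatives run (a −log10 q of at least 2 or 3, sharing of at least 50% of the shorter peak, peaks over the gene or 5 kb upstream, promoter peaks alone). Bmf lost its regions without experiment 1, and Bax without experiment 2 or experiment 3. The 22 regions were 15 to 18 without 1 experiment and 21 to 23 under the others. Bcl2 and Mcl1 had 1 region in place of 2 without experiment 1 or experiment 3, and Bbc3 had 4 in place of 6 without experiment 3. The pro-survival minus pro-death difference of -1.54 peaks per gene ran from -2.17 to -0.67 without 1 experiment, was -1 at a −log10 q of at least 3 and -0.83 for promoter peaks. Pro-survival genes were lower in 2 of 3 experiments, not 3 of 3, at a −log10 q of at least 2 or 3 and for promoter peaks. It turned to 0.032 with peaks over the gene or 5 kb upstream and to 0.42 without Bbc3 and Bcl2l11, both chosen after seeing the data. The first adds the Bcl2l1 peaks assigned to Gm23802 and also drops assigned peaks off the gene, mostly of pro-death genes. The second leaves out the genes with the most peaks. The difference in leading pileup of 4.33 ran from 1 to 7.5 without 1 experiment. With fold or percentile in its place, it was 1.73 or 16.6. The exact permutation p lay between 0.25 and 1 throughout, and pairs left at 2 or 3 cannot pass 0.05. Among assigned regions ranked by pileup, fold or percentile alone, the leading region of Bcl2 was its second promoter region (6.64). The other 8 genes kept theirs in 24 of 24 such rankings. Of these, Bcl2l1, Bax and Bak1 had only 1 assigned reproducible region each, so their leading region could not change. Between libraries, no paired analysis was possible because IP and input, which share replicate numbers, enter only as their contrast within 1 list per experiment. The pairs of the permutation test are instead the pro-survival and pro-death values of the same experiment. Unknown depth limits what a missing peak shows.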
